A study of Mus musculus with 19 samples.

Results

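The measurements concern 7 organoid lines grown from the pancreatic ducts of wild-type mice, out of 19 mouse pancreatic duct organoid lines profiled by RNA-seq. They were chosen by label alone: the 7 abundance columns of the normal lines in the deposited table, with no measured value used. Organoids are epithelial cultures that grow as hollow spheres inside a basement membrane gel. Per the labels, the mice were wild-type on a C57B6/J background, the ducts came from pancreas judged normal by histology, and 5 lines (normal 5, 6, 11, 12 and 13) were female and 2 (normal 7 and 10) male. All were kept in a Matrigel dome under the same medium. It held epidermal growth factor (EGF), FGF-10, gastrin I, noggin, R-spondin-conditioned medium, the TGF-beta receptor inhibitor A83-01, N-acetylcysteine, nicotinamide and the B27 supplement. Such lines are propagated epithelial cultures, grown without the stroma, vessels and acini that surround a duct in the animal, and several wells of one line were pooled for each library. The labels give no ages and do not say whether lines came from different mice or litters, so every SD and p-value below measures the spread between these 7 libraries. The other 12 lines entered no comparison of groups.

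The pancreatic duct is a simple epithelium that carries the enzymes of the acini to the gut and adds a bicarbonate-rich fluid to them. Chloride leaves the cell through CFTR and other apical channels, bicarbonate follows through exchangers of the SLC26 and SLC4 families, carbonic anhydrases supply it, and secretin and other signals turn secretion on through cyclic AMP and calcium. Keratins 7, 8, 18 and 19 form the cytoskeleton of these cells, and SOX9 and other transcription factors hold their identity. In culture, EGF, FGF-10 and R-spondin drive growth, while noggin and A83-01 block the BMP and TGF-beta signals that restrain it.

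Abundance is given as TPM, a unit that scales each library to the same total and divides by transcript length, so levels can be compared between genes. Of the 29861 rows of the table, 19684 had a TPM above 0 in at least 1 normal line. The number of genes at 1 TPM or more was 12111 in the line with the fewest and 12437 in the line with the most, 11499 genes passed 1 TPM in all 7 lines and 1519 in only some of them. A mean of at least 10 was reached by 7741 genes, of at least 100 by 1125 and of at least 1000 by 117. TPM keeps no depth, so no counting interval can be given. As a guide to depth, the base mean of the authors' deposited table, a normalised read count averaged over all 19 lines, had a median of 50.3 for the 281 rows with a mean TPM of 0.9 to 1.1. The 11 expressed rows for which the table holds no comparison, several with mitochondrial names, took 23.3% to 28.6% of the TPM of a normal line, and 1 of them alone took 18.3% to 22.2%. All other TPM values are lower for that share, which differs between lines.

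A pair of features of the set of lines bears on all results. First, the column names carry library identifiers of 3 series, with normal 5, 6 and 7 in the first, 10 and 11 in the second and 12 and 13 in the third. Second, normal 5, 6 and 7 lay outside the range of all 16 other lines of the study for 252 of 12635 genes tested. Those 16 include the 4 lines of other groups in the first series. In 9 genes the gap was at least 1.5-fold with at least 5 TPM in some line, a search made after the data were seen. One of them was Nnt, the mitochondrial nicotinamide nucleotide transhydrogenase, of which C57BL/6J mice are known to carry a deletion. Nnt stood at 37.03, 39.1 and 38.95 TPM in normal 5, 6 and 7 and at 14.2 to 22.01 TPM in the 16 other lines. Dynlt1b, a dynein light chain gene, stood at 228 to 256 TPM in the 3 lines against 58.7 to 88.8 TPM. Cd59a, Efcab7, Rshl2a and Wdfy1 were also higher in the 3 lines, and D14Ertd449e, BC086315 and Plac9 were lower. What sets the 3 lines apart was not tested. Values without them are therefore given where they matter. Between lines, Pearson's r of log2(TPM + 1) across genes ran from 0.973 to 0.993. Normal 5 and normal 7, a female and a male line, were the closest pair, with 49 genes at least 2-fold apart, against a median of 386 over the 21 pairs.

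The labelled cell type was checked against its markers. Krt19, a keratin of duct and other simple epithelia, stood at 1141 ± 193 TPM (SD, n = 7), rank 103 of all rows, and at 941 in the lowest line, 1100.1 in the median line and 1493 in the highest. Epcam, the epithelial cell adhesion molecule, stood at 430.5 ± 44.9 TPM, with every line between 386 and 520.4. The other 2 markers were present at low level. Sox9, the transcription factor of duct and progenitor cells, had 5.98 ± 1.28 TPM and ranged from 4.35 to 8.01. Cftr, the chloride and bicarbonate channel, had 2.26 ± 0.889 TPM and ranged from 1.36 to 3.76. All 4 markers were above 1 TPM in each of the 7 lines, but Krt19 was 191 times as abundant as Sox9 and Epcam 190 times as abundant as Cftr. In a bulk library, a low level in every cell and a high level in few cells cannot be told apart.

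Of the 40 genes listed for duct identity, 39 were in the table, 34 of these were above 1 TPM in all lines and 3 below 1 TPM in all lines. The median of their means was 44.8 TPM. Among surface proteins, Cd24a reached 825 ± 133, Tspan8 657 ± 122, Prom1 566 ± 141 and Muc1, the transmembrane mucin of duct cells, 181 ± 23.05 TPM. Prom1 was higher in normal 5, 6, 7 and 10 (571 TPM or more) than in normal 11, 12 and 13 (467 TPM or less). Among transcription factors, the epithelial ETS factor Ehf was most abundant (339 ± 46.5 TPM), and the nuclear receptor Hnf4a had 77.7 ± 14.6 and the ETS factor Elf3 45.7 ± 11.3 TPM. Hes1, a target of Notch signalling, had 82.9 ± 28.7 TPM and was lowest in normal 5 and 7 at 48.8 and 46.1. Foxa2 stood at 36.01 ± 4.37 and Pdx1, a regulator of pancreas development, at 10.1 ± 2.11 TPM. Nkx6-1, Foxa1 and Hnf4g stayed below 1 TPM in every line.

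**Figure D1:**
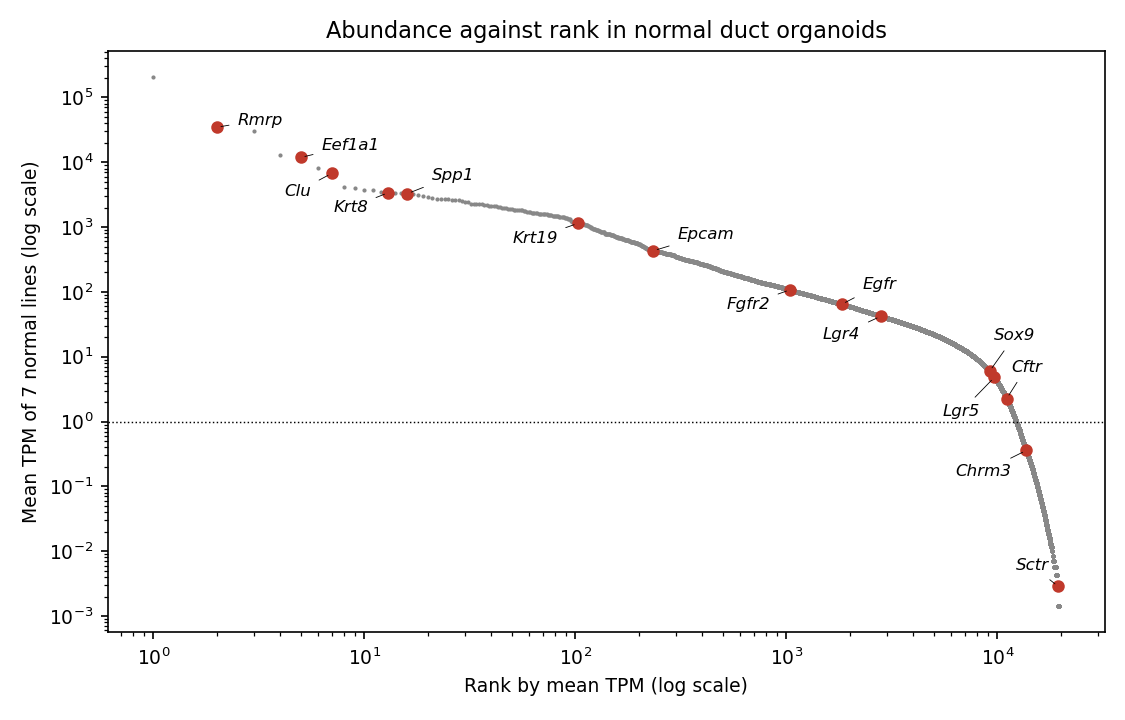
Mean TPM of the 7 normal lines against rank by mean TPM, both on log scales, with 1 grey point per expressed row, named genes in red and a dotted line at 1 TPM. Cytoskeletal and secreted genes of the duct sit near the top and receptors such as Fgfr2 and Egfr in the middle. Sox9, Cftr and Lgr5 sit lower, with means between 1 and 10 TPM.

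Abundance was concentrated in few rows: the 100 most abundant held 50.0% ± 1.96 (SD, n = 7) of all TPM and the 1000 most abundant 74.9% ± 1.14. The most abundant named row was Rmrp, the RNA of RNase MRP that takes part in ribosomal RNA processing, with 24366 in the lowest line, 34694 in the median line and 43389 in the highest. It is short and TPM divides by length, so few reads weigh much. Among the 25 most abundant named rows, 9 were ribosomal protein genes, which as a class of 84 rows took 10.8% to 14.1% of TPM. A further 2 had mitochondrial names, and Eef1a1, the elongation factor that brings tRNAs to the ribosome, stood at 11858 ± 643 TPM.

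Next to these housekeeping genes, 4 of the 25 encoded secreted proteins and 2 encoded keratins. Clu, clusterin, a secreted chaperone, stood at 6719 ± 1905 TPM, with 9145 and 9248 TPM in normal 6 and 12 and 4654 to 7205 TPM in the other lines. Cxcl5, a chemokine that attracts neutrophils, stood at 3317 ± 1013 TPM and was lowest in normal 5 and 7 (2062 and 2122). Spp1, osteopontin, a secreted matrix protein made by duct cells, stood at 3282 ± 1371 TPM, again highest in normal 6 and 12 (4704 and 5560.2) and lowest in normal 5 and 7 (2179 and 1975). Lcn2, lipocalin 2, an iron-trapping defence protein, stood at 2591 ± 693 TPM. All 4 secreted genes stood at 1717 TPM or more in every line.

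The epithelial cytoskeleton and its junctions were abundant. Krt8 and Krt18, which pair into filaments, had almost the same level, 3393 ± 784 and 3246 ± 627 TPM, and their ratio stayed between 0.933 and 1.15 in the 7 lines. Krt7 had 552 ± 112 TPM. The 7 listed keratins took 0.689% to 0.807% of TPM in normal 5, 6, 7, 10 and 13, 0.897% in normal 12 and 1.17% in normal 11. Of 34 junction genes, 28 were above 1 TPM in all lines, with Ctnnb1 (beta-catenin, a partner of E-cadherin at adherens junctions) at 1021 ± 111, Cdh1 (E-cadherin) at 182 ± 51.1 and the tight junction genes Cldn2, Cldn3, Cldn7 and Cldn4 at 338 ± 47.2, 194 ± 33.9, 191 ± 11.4 and 117 ± 24.98 TPM. Cldn18, Cldn10 and Cldn5 were below 1 TPM in every line. The median SD of log2(TPM + 1) was 0.21 for the 29 tested junction genes and 0.19 for the 20 tested genes of polarity, against 0.19 over all 12635 genes tested. Ezr, which ties the apical membrane to actin, led the polarity genes with 265 ± 30.6 TPM, and Crb3, which marks the apical domain, had 53.8 ± 2.27 TPM. Genes of the primary cilium, a sensory organelle of duct cells, were low but present, 17 of 18 above 1 TPM in all lines, with Pkd2 at 31.7 ± 5.24 and Pkhd1 at 12.8 ± 2.87 TPM.

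Transport genes ranged from abundant to near 0, with a median of means of 10.1 TPM. Of 51 listed genes, 33 were above 1 TPM in all lines and 15 below 1 TPM in all lines. On the basolateral side, Atp1b1, the beta subunit of the sodium pump, stood at 268 ± 43.5 TPM, Slc12a2 (NKCC1, which loads chloride) at 128 ± 31.7, and Slc4a4 (NBCe1, which loads bicarbonate) at 26.2 ± 5.005 TPM. Carbonic anhydrases were led by Car2, the cytosolic form, at 288 ± 61.6, and Car9, a membrane form, at 114 ± 41.01 TPM. The calcium-activated chloride channel Ano1 had 54.1 ± 12.8 TPM, or more than Cftr in every line. The exchanger Slc26a6 had 1.49 ± 0.484 TPM, while Slc26a3 and Slc26a4 stayed below 1 TPM. Among potassium channel genes, the subunit Kcne3 (128 ± 52.03 TPM), Kcnk1 (85.5 ± 9.33), Kcnn4 (62.6 ± 10.3) and Kcnq1 (23.6 ± 8.39) were present and Kcnma1 stayed at or below 0.03 TPM. Water channels were Aqp1 at 85.5 ± 35.9 and Aqp5 at 27.1 ± 11.1 TPM, with Aqp1 between 1.71 and 6.28 times Aqp5. Aqp1 separated the lines into normal 11, 12 and 13 with 108 to 127 TPM, normal 5 with 93.8 TPM, and normal 6, 7 and 10 with 42.9 to 53.7 TPM. Car4, Car14 and Aqp8 were listed at 0 in all 7 lines.

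Receptors for the hormones that turn duct secretion on were near or at 0. Sctr, the secretin receptor, had a TPM above 0 in 1 line only (0.02). Vipr1, for vasoactive intestinal peptide, had 0.283 ± 0.156 and Chrm3, a muscarinic receptor for acetylcholine, 0.359 ± 0.271 TPM. Of the 28 genes listed for secretagogue receptors and cyclic AMP signalling, 12 were above 1 TPM in all lines and 12 below 1 TPM in all lines. Those present included the nucleotide receptor P2ry2 (32.5 ± 5.72 TPM), the protease receptor F2rl1 (87.4 ± 26.4), which both act through calcium, and the shared machinery behind the receptors: Gnas, the stimulatory G protein, at 301 ± 33.3, Adcy6, an adenylate cyclase, at 24.6 ± 1.82 and Prkaca, the catalytic subunit of protein kinase A, at 55.1 ± 6.35 TPM.

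Secreted and defence genes were among the most abundant after those of housekeeping. The 49 genes listed as secreted by duct epithelium took 1.54% to 3.04% of TPM, lowest in normal 7 and highest in normal 12. Beyond the 4 named above, Mmp7, a matrix metalloproteinase of epithelia, had 1096 ± 312, Cp, ceruloplasmin, 979 ± 243, Wfdc2, a protease inhibitor, 894 ± 169 and Igfbp7 571 ± 268 TPM. Complement genes were present, C3 at 176 ± 68.2 and Cfb at 142 ± 51.97 TPM. By contrast the gel-forming mucins Muc2, Muc5ac, Muc5b and Muc6 stayed below 1 TPM in all lines (Muc2 up to 0.12 TPM), and so did Muc4 (up to 0.5 TPM). Of the trefoil peptides that accompany mucins, Tff2 had 58.8 ± 42.2 TPM and ran from 11.97 in normal 6 to 127 in normal 10.

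The receptors for the factors of the medium covered a wide range of levels. Of 23 receptor genes for EGF, FGF-10, gastrin, R-spondin, the BMPs that noggin traps and the receptors that A83-01 inhibits, 13 were above 1 TPM in all lines and 8 below 1 TPM in all lines. Egfr, the EGF receptor, had 64.3 ± 23.4 TPM. It stood at 38.6, 40.3 and 48.3 in normal 5, 6 and 7 and at 60.8, 92.6, 93.5 and 76.1 in normal 10 to 13, with no overlap between the first identifier series and the others. First-series lines lay all above or all below the others for 20.8% of the genes tested, so such a split was common. Its partners Erbb3 and Erbb2 had 42.3 ± 6.79 and 16.03 ± 2.36 TPM, and Erbb4 at most 0.09. The lines also expressed ligands of this family, Hbegf at 59.7 ± 6.88, Tgfa at 40.6 ± 7.44, Areg at 26.2 ± 8.77 and Btc at 15.7 ± 2.93 TPM, but little Egf itself (0.279 ± 0.0731).

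Fgfr2, whose epithelial splice form binds FGF-10, had 108 ± 12.97 TPM with 90.1 in the lowest line, 108 in the median line and 129 in the highest, and was the most abundant of the 4 FGF receptors in every line. The rows are genes, so splice forms cannot be told apart. Fgfr3 had 11.96 ± 6.16 TPM, with 19.7 and 21.6 in normal 11 and 13 and 9.76 or less elsewhere, Fgfr4 had 5.296 ± 2.18 and Fgfr1 0.433 ± 0.278 TPM. The gastrin receptor Cckbr was listed at 0 in all 7 lines, and the related cholecystokinin receptor Cckar reached 0.01 TPM in the highest line. With the depth unknown, a trace cannot be told apart from none.

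**Figure D2:**
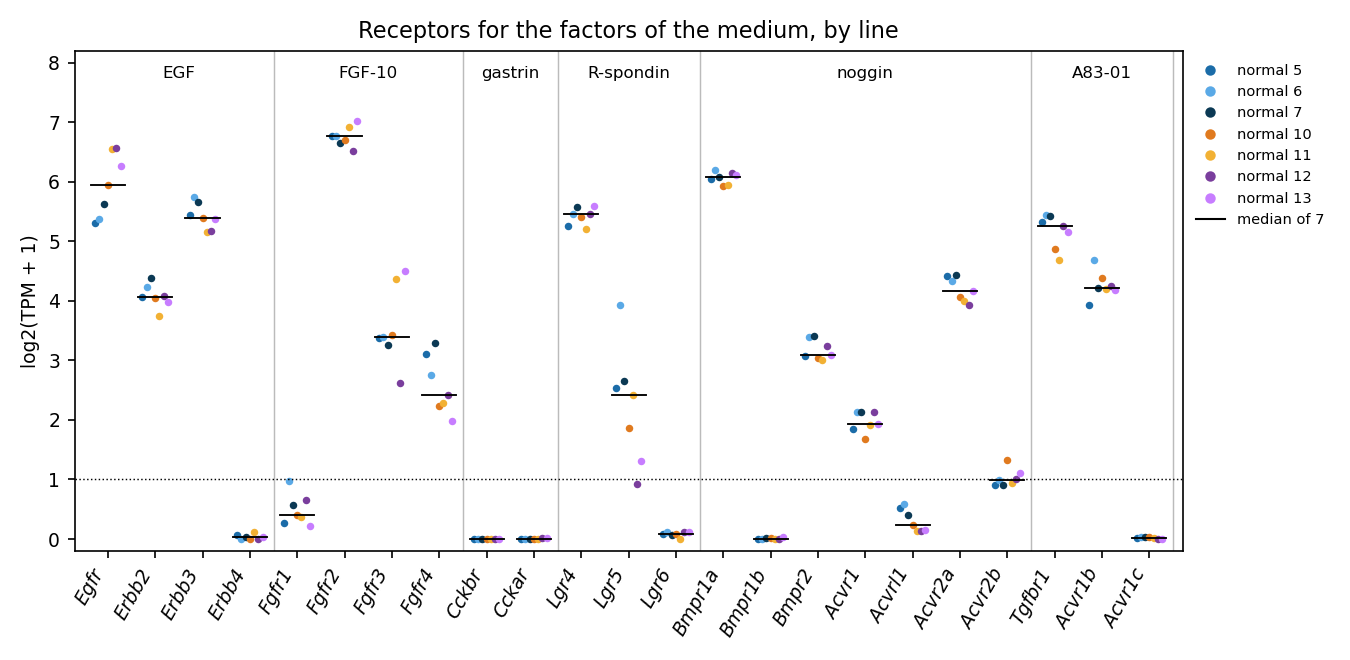
Levels of the 23 receptor genes for factors of the medium as log2(TPM + 1), 1 point per normal line (colours) and a bar at the median of 7, grouped by factor, with a dotted line at 1 TPM. Fgfr2, Bmpr1a and Egfr were highest, both gastrin and cholecystokinin receptors lay at the floor, and Lgr5 spread most widely between lines.

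R-spondins act through LGR receptors to protect Wnt receptors from the ligases RNF43 and ZNRF3. Lgr4 had 42.1 ± 4.38 TPM and was even between lines (35.9 to 47.2). Lgr5, itself a Wnt target, had 4.81 ± 4.47 TPM and ran from 0.89 in normal 12 to 14.2 in normal 6, and Lgr6 stayed at or below 0.09. Rnf43 had 28.3 ± 8.803 and Znrf3 9.37 ± 2.66 TPM. Of 15 Wnt receptor genes, 11 were above 1 TPM in all lines, with Fzd6 (32.4 ± 4.51) the highest frizzled and the co-receptors Lrp5 and Lrp6 at 30.05 ± 8.99 and 24.1 ± 2.36 TPM. The medium as labelled names no Wnt protein, and the lines expressed Wnt7b at 96.97 ± 13.9, Wnt4 at 14.5 ± 5.88 and Wnt7a at 7.01 ± 4.11 TPM, together with Wls, the carrier that releases Wnts, at 82.4 ± 6.11 TPM. Of the 21 genes listed for Wnt ligands and their release, 14 stayed below 1 TPM in all lines, and Wnt1 and Wnt3 were listed at 0. Axin2, a feedback target, was highest in the same line as Lgr5, with 26.3 TPM in normal 6, 10.8, 13.3 and 7.99 in normal 5, 7 and 11, and 2.26, 3.98 and 3.66 in normal 10, 12 and 13. Other feedback targets, Notum, Lef1, Nkd1 and Apcdd1, were below 1 TPM in every line.

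For the BMP arm, Bmpr1a had 66.1 ± 4.59 TPM (60.02 to 72.1), Acvr2a 17.5 ± 2.64, Bmpr2 8.099 ± 1.09 and Acvr1 2.94 ± 0.469, with Bmpr1b at or below 0.02. Noggin itself (Nog) was listed at 0. Bmp4, a ligand, had 12.6 ± 5.82 TPM. The BMP targets Id2, Id1 and Id3 had 551 ± 85.03, 113 ± 48.2 and 15.7 ± 13.6 TPM with noggin in the medium. Id1 and Id3 were highest in normal 10 (203 and 41.2) and lowest in normal 6 (46.97 and 3.27). For TGF-beta, Tgfbr2 had 90.6 ± 14.9 and Tgfbr1, which A83-01 inhibits, 35.5 ± 6.76 TPM. The ligand Tgfb3 had 101 ± 15.4 TPM, at least 42.8 times Tgfb1 in every line. For the supplement, Tfrc, the transferrin receptor, had 138 ± 36.95, Insr, the insulin receptor, 10.6 ± 0.7, Igf1r 9.74 ± 1.91, the glucocorticoid receptor gene Nr3c1 22.9 ± 3.52 and the thyroid hormone receptor gene Thra 11.4 ± 0.785 TPM, while Pgr, for progesterone, was at or below 0.01. For the gel, receptors for laminin and collagen were plentiful: Bcam 412 ± 40.9, Itgb1 231 ± 24.3, Itga3 92.1 ± 24.1, Itga6 44.8 ± 11.2 and Itga2 43.5 ± 10.3 TPM.

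Most markers of other cell types of the pancreas were near 0. In 8 lists (acinar, endocrine, fibroblast and stellate, endothelial, immune, neural and glial, erythroid and muscle, and adipocyte), 139 of 156 genes were below 1 TPM in all 7 lines and 58 of them were listed at 0 in all 7. Only 10 were above 1 TPM in all lines. Of all 29861 rows of the table, 16843 were below 1 TPM in all 7 lines and 10177 were at 0 in all 7. Rows at 0 were thus about as common in the lists as in the whole table, while rows below 1 TPM were more common in the lists. In the acinar list, the digestive enzyme genes Cpa1, Pnlip and Prss1 and the acinar regulators Ptf1a and Rbpjl were listed at 0, and the summed level of 32 genes was 9.55 TPM in the median line and 41.8 TPM in normal 6. That line alone had Reg1 at 29.6 TPM (others up to 0.56) and Reg3b, a defence lectin of the same family, at 28.9 TPM (others up to 0.77), while amylase (Amy2a5) stayed at or below 0.09 TPM in all lines. Nr5a2, a nuclear receptor used by acinar and other epithelial cells, had 6.95 ± 2.197 TPM. In the endocrine list, no gene averaged 1 TPM, the summed level of 29 genes was 1.2 to 2.07 TPM, and Ins1, Ins2, Gcg and Neurog3 were listed at 0. The mesothelial list, which is not in that tally, had 8 genes in the table, of which 6 were below 1 TPM in all lines. Its other members were Krt19, a keratin that duct cells share, and Msln (mesothelin), at 47.9 to 189.8 TPM.

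In the fibroblast list, Col3a1, Thy1, Lum and Des were listed at 0 and Col1a1, Pdgfra and Pdgfrb were at or below 0.05 TPM. The exceptions were Pdpn (56.2 ± 16.6 TPM), Gsn (32.8 ± 9.26) and Fn1 (23.9 ± 6.98), which epithelial cells can express too, and Vim, vimentin, had 1.78 ± 1.15 TPM. Endothelial Kdr, Emcn and Cldn5 were listed at 0, with Egfl7 at 14.9 ± 2.52 TPM. Immune Cd3e, Tyrobp and Laptm5 were listed at 0 and Ptprc, the pan-leukocyte CD45 gene, was at or below 0.09 TPM. The exceptions Cd68, Csf1r and Aif1 had 2.77 ± 0.694, 2.57 ± 1.53 and 1.88 ± 0.749 TPM. In the neural list Mbp had 27.5 ± 4.07 TPM, while Sox10 and Gfap were below 1 TPM.

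Lists of other epithelia each held some abundant genes and some near 0. In the liver list, Trf (transferrin) and Ttr (transthyretin) had 531 ± 223 and 54.5 ± 27.8 TPM, but Alb had 1.56 ± 1.65 TPM and Apoa1, Cps1, Tat and Cyp3a11 were below 1 TPM in all lines. In the gastric list, Ctse, cathepsin E, had 629 ± 256, Tff2 58.8 and Tff1 11.5 ± 9.41 TPM, while Muc5ac, Muc6, Gkn1 and Sox2 were below 1 TPM. In the intestinal list, Spink4 had 398 ± 172, Vil1 (villin, of microvilli) 91.6 ± 21.96, Lgals4 25.2 ± 26.2 and Olfm4 12.5 ± 9.45 TPM, while Cdx2 had 1.98 ± 1.02 and Fabp1, Sis and Atoh1 were listed at 0. Tuft cells, chemosensory cells found in inflamed ducts, were not evident from Pou2f3, Trpm5 or Gnat3 (each at or below 0.1 TPM), with Ptgs1 at 58.3 ± 12.4 and Dclk1 at 2.13 ± 1.96 TPM. In the squamous list Sprr1a had 263 ± 131 TPM, most in normal 11 (505), while Krt5, Krt14 and Trp63 were below 1 TPM. Of 15 motile cilia genes in the table, 8 were at 1 TPM or more in all lines, 4 in some and 3 in none, and the median of their means was 2.79 TPM. Foxj1, a regulator of motile cilia, had 87.5 ± 29.5 TPM, and the dynein genes Dnaic1 and Dnaic2 of the ciliary motor were below 1 TPM in all lines.

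**Figure D3:**
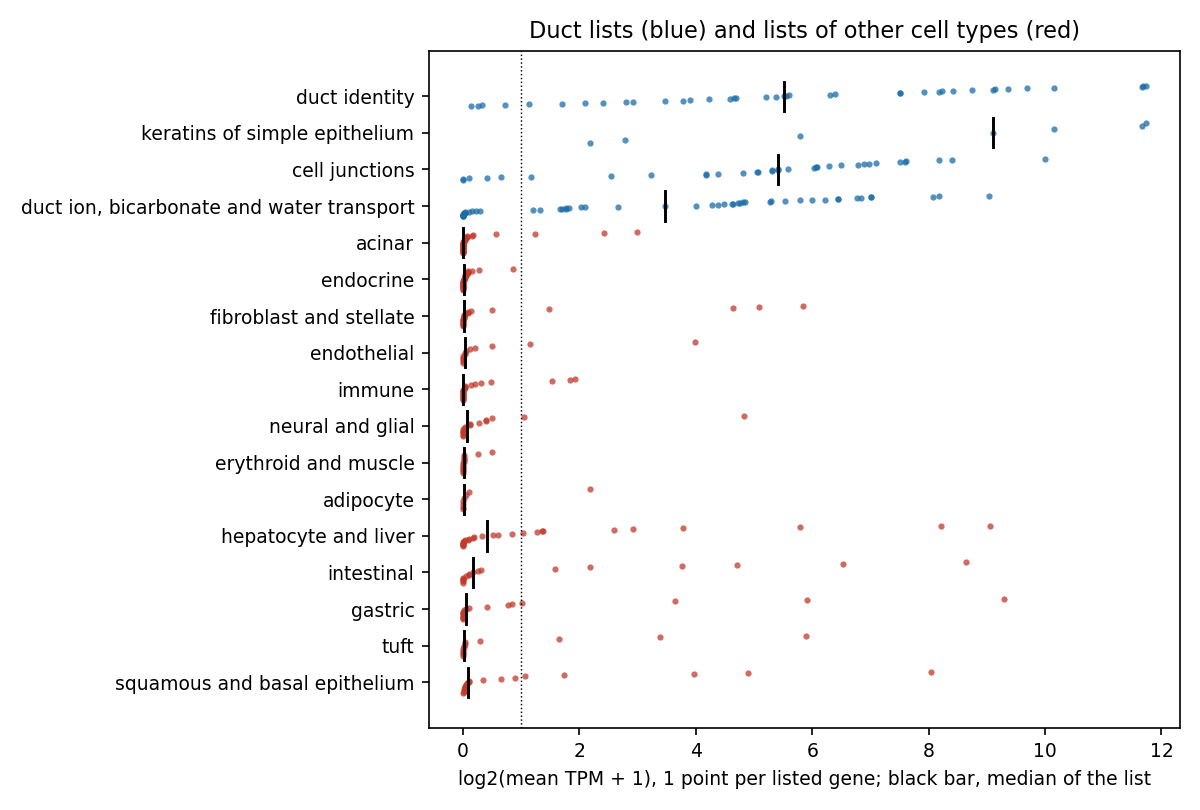
Each point is the mean of 1 listed gene over the 7 normal lines as log2(mean TPM + 1), black bars are list medians, blue lists belong to duct epithelium, red lists to other cell types, and the dotted line is 1 TPM. Medians of the 4 blue lists lay above 1 TPM and those of all red lists drawn below it, with single high points such as Pdpn, Trf, Ctse, Spink4 and Sprr1a. Among lists not drawn, the motile cilia median was 2.79 TPM and that of the secretagogue receptor and cAMP list 0.644 TPM.

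Most genes varied little between lines. Over the 7741 genes with a mean of at least 10 TPM, the median coefficient of variation (CV, the SD as a percentage of the mean) was 11.7%, and 37.0% of them had a CV under 10%. The highest line was at least 2-fold the lowest for 870 genes (11.2%) and at least 10-fold for 30. The steadiest gene with a mean of at least 50 TPM was Anxa7, an annexin of membrane fusion, at 80.9 ± 1.62 TPM with every line between 78.8 and 83.1 (CV 1.999%). It was followed by Ssr2, of the translocon-associated complex (249.6 ± 5.52 TPM, CV 2.21%), Pcbd1, an enzyme of pterin recycling (113 ± 2.76, CV 2.45%), Phb, prohibitin (133 ± 3.499, CV 2.63%), and Slc35b1 (67.03 ± 1.86, CV 2.77%). The next 10 had CVs of 2.83% to 3.49% and included Vti1b, Vps41, Stxbp2 and Arfip1, of membrane traffic, Polr2e, a subunit of RNA polymerases, and Tceb2, elongin B, the most abundant of the 15 at 499.9 ± 16.7 TPM. Such a ranking at the steady end is fine-grained: with normal 5, 6 and 7 left out, 2 of these 15 were still among the 15 steadiest, and 5 were without normal 12, 6 without normal 11, 8 without normal 6 or normal 10 and 9 without normal 7.

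Genes often used as internal references were not all steady. Of 37 such genes ranked by CV, 21 were below the median CV of all genes of at least 10 TPM and 22 had a CV of at least 10%. Among all genes of that level, 37.0% had a CV under 10%. As a set, these 37 were therefore about as steady as other genes of that level. Psmb2 (4.87%), Eef1a1 (5.42%), Rplp0 (5.49%) and Tbp (6.31%) were the lowest with a gene name. Actb, beta-actin, had a CV of 10.7% and Hprt 9.103%. At the other end were Pgk1 (36.3%), Tfrc (26.7%), Gpi1 (25.9%), Ldha (24.6%), B2m (22.7%) and Gapdh (20.5%, from 1776 TPM in normal 12 to 3260.1 in normal 10). Of these 6, Pgk1, Gpi1, Ldha and Gapdh encode enzymes of glycolysis.

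**Figure D4:**
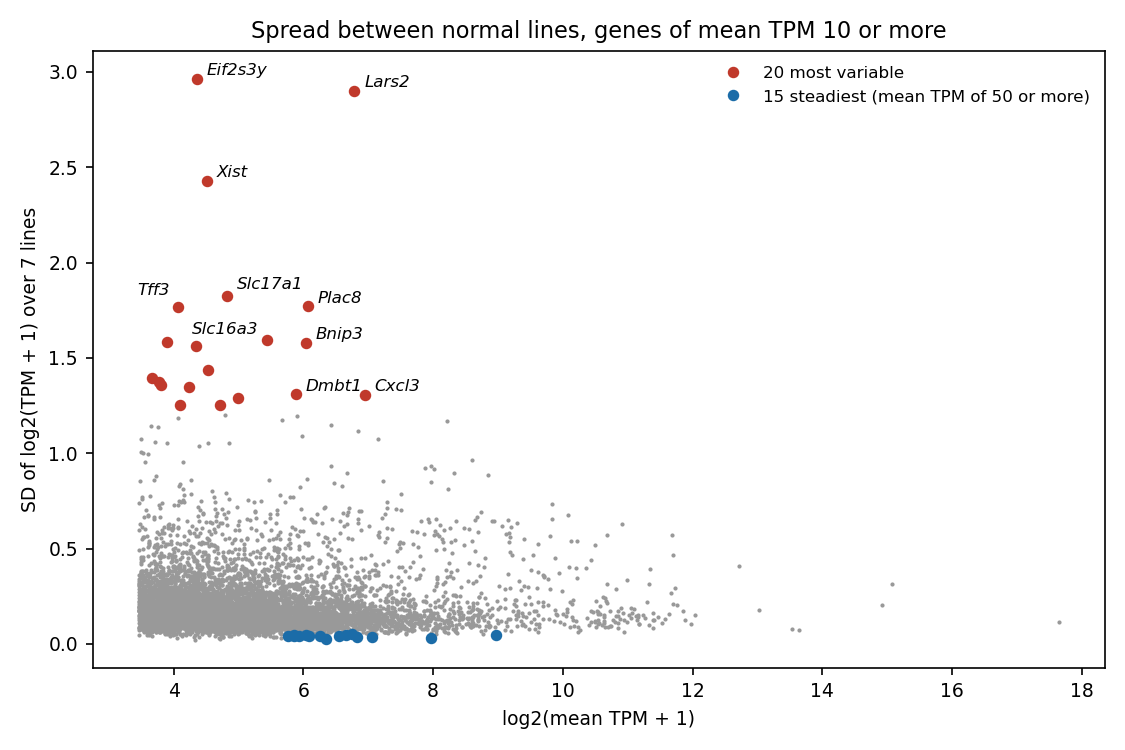
SD of log2(TPM + 1) over the 7 normal lines against log2(mean TPM + 1), 1 grey point per gene with a mean of at least 10 TPM, with the 20 most variable genes in red and the 15 steadiest of at least 50 TPM in blue. The red genes have SDs of 1.25 to 2.96 and the blue genes 0.05 or less.

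The 20 most variable genes with a mean of at least 10 TPM had SDs of log2(TPM + 1) of 1.25 to 2.96, against a median of 0.16 over the genes of that level. Eif2s3y and Xist were among them and follow sex (below). Lars2, which encodes the mitochondrial leucyl-tRNA synthetase, had 743 TPM in normal 12 and 1.63 to 9.49 in the 6 other lines. Whether the reads of this row in normal 12 come from the gene was not tested. Normal 12 was the lowest line for 9 of the 20 and the highest for 5, and normal 10 was the highest for 8. Without normal 12, 8 of the 20 were still among the 20 most variable. Several of the rest belong to the hypoxia response, to mucosal and acute-phase proteins or to chemokines, which are taken in turn. Outside these, Slc17a1, a phosphate and urate transporter, had 60.5 and 76.7 TPM in normal 12 and 13 and 1.69 to 27.7 in the others. Plac8 had 281 TPM in normal 10 and 4.98 to 60.6 elsewhere. Sult1c2, a sulfotransferase, ran from 4.71 in normal 12 to 65.1 in normal 10, and Cyp2s1, a cytochrome P450, from 1.7 in normal 12 to 30.3 in normal 7.

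Most genes of glycolysis and the response to low oxygen were lowest in normal 12. Of the 26 listed members with a mean of at least 5 TPM, 20 were lowest in normal 12, against 8.58% of the 9596 genes of that level. The mean log2 level of the list, relative to its mean over the 7 lines, was -0.92 in normal 12, -0.36 in normal 13, 0.50 in normal 10 and 0.52 in normal 11. Over all genes of that level the same measure lay between -0.09 and 0.09. Normal 12 stayed lowest, at -0.89 to -0.94, under each of 3 other scalings of the libraries. Bnip3, a mitophagy receptor induced by hypoxia, had 4.03 TPM in normal 12, 25.5 in normal 13 and 68.8 to 108 in the other 5 lines. Ndrg1, another gene that hypoxia induces, had 2.31 and 4.5 TPM in these 2 lines and 15.4 to 43.7 elsewhere. Outside the list, 2 of the 20 most variable genes had the same low lines. Slc16a3, the lactate exporter MCT4, had 2.18 and 20.6 TPM in normal 12 and 13 and 29.4 to 79.8 in the others, and Ak4, an adenylate kinase, 0.48 and 5.11 against 7.01 to 23.99.

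The enzymes differed by less, with the same low lines. Pgk1 had 405 TPM in normal 12, 684 in normal 13 and 1131 to 1477 in the others, and Ldha, lactate dehydrogenase A, had 755 and 1086 against 1162 to 1669. Car9, a carbonic anhydrase induced by hypoxia, had 47.1 and 64.1 against 123 to 150.1. Some members had another order of lines. Ankrd37 was low in normal 12 (3.86 TPM) and also in normal 5 and 7 (3.4 and 2.71), and high in normal 6, 10, 11 and 13 (18.2 to 42.4). Slc2a1, the glucose transporter GLUT1, was lowest in normal 6 (79.2) and highest in normal 11 (216). Normal 12 and 13 form the third identifier series, so their library series and their level of these genes cannot be told apart.

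Hypoxia-inducible factors bind a core written ACGTG or GCGTG, and the stretches just upstream of the start sites are shown because these genes varied together between lines. In RefSeq promoter entries (build GRCm38.p6, not the build of the table) the core, on either strand, was searched in the 250 bases before the start. It was found in 18 of 23 listed genes of at least 10 TPM with an entry (78.3%), in 58.8% of 8279 promoters of genes tested here and in 38.6% of all 27025 promoters. The 100 bases before the start are printed 5′ to 3′ on the gene's strand, with matches to the core in capitals (overlapping matches run on), for the 3 genes with the widest spread between lines among the 23, for Ldha, with most matches in the printed stretch, and for Vegfa, which has none in its 250 bases.
Bnip3 (chr7:138909507-138909606, minus strand): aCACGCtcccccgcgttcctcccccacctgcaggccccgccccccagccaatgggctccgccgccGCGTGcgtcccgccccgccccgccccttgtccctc
Ankrd37 (chr8:45999851-45999950, minus strand): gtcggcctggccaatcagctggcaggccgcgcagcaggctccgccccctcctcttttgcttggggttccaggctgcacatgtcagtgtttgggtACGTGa
Pfkp (chr13:6648772-6648871, minus strand): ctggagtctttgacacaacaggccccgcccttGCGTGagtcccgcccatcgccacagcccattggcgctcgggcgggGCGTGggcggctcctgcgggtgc
Ldha (chr7:46845704-46845803, plus strand): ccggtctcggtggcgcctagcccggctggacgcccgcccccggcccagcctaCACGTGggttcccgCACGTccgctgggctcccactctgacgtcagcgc
Vegfa (chr17:46032378-46032477, minus strand): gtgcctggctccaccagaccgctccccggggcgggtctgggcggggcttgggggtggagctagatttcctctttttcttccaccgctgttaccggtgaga
Vegfa nevertheless was lowest in normal 12 (17.6 TPM) and highest in normal 11 (95.9). A match is a string of letters and says nothing of binding. The list was drawn up to hold genes of glycolysis and the hypoxia response, so its higher share of matches tests nothing about these lines.

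Lipid synthesis genes also stood low in normal 12, by less than those of glycolysis, and about as low in normal 13. All 24 listed genes of cholesterol and fatty acid synthesis in the table were above 1 TPM in every line, led by Scd2, a fatty acid desaturase, at 672 ± 129 TPM and Fdps, of the mevalonate pathway, at 582 ± 117 TPM. Normal 12 was lowest for 14 of the 24 and normal 13 for 7, against 8.58% and 11.9% of the 9596 genes of at least 5 TPM. Normal 7 was highest for 11 and normal 11 for 8, against 28.4% and 7.57%. The list level was -0.36 in normal 12, -0.34 in normal 13 and highest, 0.37, in normal 7. Mvd, an enzyme of the mevalonate pathway, had 36.2 and 43.97 TPM in normal 12 and 13 and 57.5 to 77.03 in the others. Insig1, which sterol-regulated transcription also controls, had another order, with 158 to 283 TPM in the first series and 85.8 to 112 in the others and no overlap.

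Detoxification genes were among the abundant ones. Of 46 listed genes, 30 were above 1 TPM in all lines, and the glutathione transferases Gsta4, Gstp1 and Gsto1 stood at 1100.3 ± 164, 780.4 ± 181 and 548 ± 74.98 TPM. Txnrd1, thioredoxin reductase, had 135 to 207 TPM in the first series and 101 to 119 in the others. Gstt1 had 229.98 to 241 TPM in normal 11, 12 and 13 and 111 to 139.9 in the other 4 lines.

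Proliferation genes were expressed in all lines and lowest in normal 11. All 42 listed genes were above 1 TPM in every line, with Pcna, the sliding clamp of replication, at 295 ± 43.7, Top2a at 184 ± 53.1 and Mki67 at 79.7 ± 27.5 TPM. All 40 members with a mean of at least 5 TPM were lowest in normal 11, where 32.8% of the 9596 genes of that level were lowest. The mean log2 level of the list, relative to its mean over the 7 lines, was -0.97 in normal 11, -0.21 in normal 13 and between 0.02 and 0.37 in the other 5, against -0.09 for all genes in normal 11. Under 3 other scalings normal 11 lay at -0.87 to -0.93. Ccnb1, the mitotic cyclin, had 32.3 TPM in normal 11 and 78.6 to 133.8 in the others, Mki67 35.9 against 62.5 to 121, and Cdk1 33.3 against 62.6 to 84.5. Normal 11 was also the line with the highest Krt8 (5042 TPM), Krt18 (4399.9), Krt19 (1493) and Malat1, a nuclear noncoding RNA (3240.2 TPM against 868 to 1604).

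**Figure D5:**
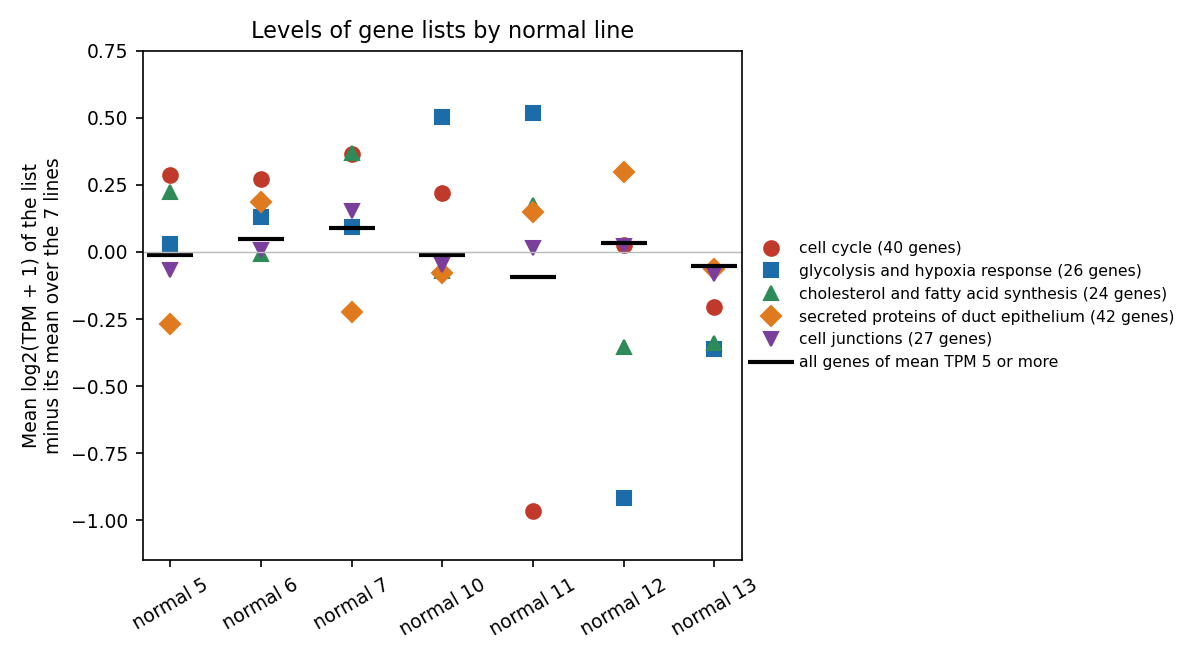
For 5 gene lists, the mean log2(TPM + 1) of members with a mean of at least 5 TPM in each normal line, minus the mean over the 7 lines, with black bars for all genes of that level. Normal 11 sits at -0.97 for the cell cycle, normal 12 at -0.92 for glycolysis and hypoxia, and junction genes lie between -0.08 and 0.15.

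Saa3, Hp and Irg1 divided the lines another way, with normal 6 and 12 high and normal 5 and 7 low. The mean log2 level of the mucus and defence list, relative to its mean over the 7 lines and over the 18 members with a mean of at least 5 TPM, was highest in normal 10 and 11 (0.51 and 0.33) and was 0.04 in normal 6 and -0.19 in normal 12. Saa3, serum amyloid A3, had 42.4 and 21.3 TPM in normal 12 and 6, 1.51 and 1.31 in normal 5 and 7, and 5.57 to 14.2 in the others. Hp, haptoglobin, had 29.98 and 28.4 in normal 12 and 6 against 2.15 and 2.17 in normal 5 and 7, and Irg1, which makes itaconate, 43.2 and 14.8 against 3.00 and 2.13. Normal 10 also reached 16.6 TPM of Irg1. Clu and Spp1, given above, had the same order at both ends. Other mucosal genes differed in their order: Tff3, a trefoil peptide, had 38.5 and 41.03 TPM in normal 11 and 13 and 0.55 in normal 6, and Dmbt1, a mucosal scavenger receptor, 142 and 124 in normal 6 and 10 and 10.1 in normal 12. Ltf, lactoferrin, had 284 and 284 TPM in normal 6 and 10 and 46.2 in normal 12. Lgals4 had 78.6 TPM in normal 10, 39.3 in normal 13 and 7.26 to 22.6 elsewhere. These genes therefore have no single order of lines.

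Several chemokines and Csf2 were lower in the first identifier series. Cxcl2, a neutrophil attractant, had 34.5, 48.8 and 37.1 TPM in normal 5, 6 and 7 and 136 to 221 in the others. Cxcl3 had 27.2 to 44.6 against 107 to 308, Ccl2, a monocyte attractant, 138 to 179 against 269 to 684, and Csf2, GM-CSF, 26.9 to 39.0 against 64.2 to 119.8. Ccl20 had 96.5 to 179.8 against 271 to 492. None of these overlapped. Cxcl1 and Cxcl5 were different. Cxcl1 was highest in normal 12 (314) and lowest in normal 11 (55.1), with normal 5, 6 and 7 between. Cxcl5, far more abundant, had 3499.8 TPM in normal 6, above normal 10 and 11 (3469.9 and 3030.8). The metallothioneins, which bind zinc and copper, were the other way round: Mt1 had 333 to 415 TPM in the first series and 83.3 to 242 in the others, and Mt2 79.2 to 96.6 against 14.6 to 34.5. Of the 100 most variable genes 32 had first-series lines all above or all below the others, and of the 20 most variable 3 did, against 20.8% of all genes tested.

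Library series was tested across all genes, as the split that the column names offer, with limma on log2(TPM + 1) (F test over 3 series, Benjamini-Hochberg). Of 12635 genes tested, 48 had an adjusted p below 0.05 (0.38%). For 20 of the 48 the first-series lines lay above all others and for 17 below. For the second series these counts were 12 and 8, and for the third 10 and 14. The test picks genes whose series differ, so such separation is built in. Over all genes tested, 20.8% had first-series lines all above or all below the others. The 10 of smallest p were D14Ertd449e, BC086315, Dynlt1b, Rshl2a, Slc28a3, Mt2, Yipf3, Cxcl2, Nnt and Gem. Of these, 5 are among the 9 genes that set normal 5, 6 and 7 apart from all other lines. Both results use the same values of the normal lines, so neither is separate evidence for the other. Mt2 differed from the first series by -1.72 ± 0.22 (SE, log2) in the second and -2.44 ± 0.22 in the third (limma adjusted p = 0.0216), and Cxcl2 by 1.91 ± 0.21 and 2.16 ± 0.21 (limma adjusted p = 0.0216). Slc28a3, a nucleoside transporter, was low in the third series only (3.85 and 4.4 TPM against 12.5 to 16.4, limma adjusted p = 0.0216), and Yipf3 was high in the second only (30.5 and 35.05 against 8.34 to 12.2, limma adjusted p = 0.0216). Ndrg1 (limma adjusted p = 0.0216), Car9 (0.0316), S100a9 (0.0216), S100a8 (0.0289) and Ccl2 (0.0256) were also called. S100a8 and S100a9, subunits of calprotectin, were highest in normal 10 and 11, with S100a9 at 37.7 and 47.6 TPM against 6.58 to 16.7.

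With 48 genes called, 2629 had an unadjusted p below 0.05, and the count depended on single libraries. It was 0 without normal 5 (1933 genes at an unadjusted p below 0.05), 3 without normal 7, 4 without normal 12, 28 without normal 13, 170 without normal 6 and 540 without normal 10, and 4 with sex as a further term. Of the 9 genes named above with a p for library series, each lost its call in several of the alternatives tried, with a highest adjusted p between 0.122 (Mt2, limma, without normal 7) and 0.958 (Ccl2, limma, all 19 lines with group as a term). Each series holds 2 or 3 normal lines, so within the normal lines series and line cannot be told apart for any one gene. The 4 first-series lines of other groups did not share the levels of normal 5, 6 and 7 in the 5 genes named in both searches. They had 18.61 to 19.76 TPM of Nnt and 80.07 to 85.36 TPM of Dynlt1b. A call for library series among the normal lines is therefore not a statement about the series as a whole, and its cause was not tested.

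Female and male lines differed in 6 of 12635 genes (limma, two-sided, 0.0475%). Xist, the RNA that silences an X chromosome in females, stood at 24.4 to 34.7 TPM in the 5 female lines and at or below 0.01 in the 2 male lines (limma adjusted p = 1.65e-06). The Y-linked Eif2s3y had 69.9 and 65.98 TPM in the male lines and at most 0.05 in the female lines (limma adjusted p = 1.96e-07). Ddx3y, Uty and Kdm5d gave the same split, and the remaining row, Smcy, carries an older name of Kdm5d, so reads may have been divided between both rows. All 7 lines matched their labelled sex. The next gene, Fam3b, had a limma adjusted p of 0.424, and 425 genes had an unadjusted p below 0.05. With 2 male lines the count was 1 without normal 7 and 2 without normal 10.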

How the data were processed

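RNA-seq libraries of 19 mouse pancreatic duct organoid lines were deposited as 1 table, of which the 7 columns of normal lines are described here. The 12 other columns served only where normal 5, 6 and 7 are set beside the 16 other lines and in the alternative fit with all 19 lines. The TPM values were made by the authors. RSEM 1.2.11, Bowtie 1.1.0, FastQC, DESeq2 1.4.1, DESeq and the mouse build mm9 are named, with no role or order, per the submitters' processing notes. Which gene models were counted is not stated in these notes. The authors' deposited base mean, a normalised signal averaged over all lines, was used only as a guide to depth. Per the labels' protocols, the libraries mark strand and followed removal of ribosomal RNA.

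Computed here: means, SDs and CVs of TPM, and limma 3.58.1 (R 4.3.3) on log2(TPM + 1), two-sided, with Benjamini-Hochberg adjustment over all genes with a TPM of at least 1 in at least 2 lines, for library series and for sex. TPM are not counts, so no count model was used. Tables and figures used Python 3.11.15, pandas 2.3.3 and matplotlib 3.10.9. Samples were grouped by label. The study's groups were not contrasted, and library series and sex were tested within the normal lines. On simulated data, the series test (12474 genes) recovered 71% of 100 genes changed by 1 on the log2 scale and 94% of 100 changed by 2, and the sex test (12467 genes) 74% and 95%. They also called 7 and 6 unchanged genes. Both simulations drew each gene independently, with its spread within series. The sex test of the data also carries the spread between series, so its recovery there can be lower. The members and the gene lists were chosen with earlier results of these data known. Genes were named by rule: the 25 most abundant named rows, the 20 most variable at a mean of at least 10 TPM, the 15 steadiest at a mean of at least 50 TPM, up to 10 called genes per test, the receptors for the medium and leading, most variable or absent members of each list. Csf2, Ccl2, Ccl20, Mt1 and others outside these were named after their values were seen. A few genes within the rule are not reported here. Alternatives covered pseudocount, filter, scaling, added terms and leaving out lines.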

Additional observations from a re-analysis of the deposited data

Results flagged for a closer look

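Among 268 values checked over the 7 lines (221 gene levels on the log2(TPM + 1) scale, 32 list levels and 15 shares), 17 had 1 line set apart from the other 6 by a gap that is large against the whole range (Dixon's test at the 95% level). Chance alone gives this in about 1 of 20 groups of values, and 15 of the 221 gene levels had it.

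Normal 11 stood apart in proliferation and cytoskeleton. Its cell cycle list level was -0.97, with Ccnb1 at 32.3, Cdk1 at 33.3 and Top2a at 80.4 TPM, each the lowest of the 7 lines. Its share of TPM in keratins of simple epithelium was 1.17%, the highest.

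Normal 6 stood apart in Reg1 at 29.65 TPM and in the defence lectin gene Reg3b at 28.9 TPM. Normal 12 stood apart with Lars2 at 743 TPM, the highest, and Slc16a3 at 2.18 TPM, the lowest. Whether the reads of the Lars2 row come from the gene was not tested. Normal 7 had the highest Hprt, 212 TPM.

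The other values set apart lay below 1 TPM, where the depth is unknown and the line can rest on few reads. They were Chrm3 at 0.92, Ptprc at 0.09 and Trpm5 at 0.1 TPM in normal 6, Muc2 at 0.12 and Sctr at 0.02 TPM in normal 11, Pdgfra at 0.05 TPM in normal 13 and Pgr at 0.01 TPM in normal 5.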

How the results depend on the processing

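The median SD of log2 TPM over the genes tested, 0.19 as reported, was 0.21 with a pseudocount of 0.1, 0.20 with 0.5, 0.15 with no filter beyond a TPM above 0, 0.18 with a filter at 5 TPM, 0.196 after rescaling without the 11 rows that lack a deposited comparison, 0.183 with median-of-ratios scaling, 0.181 with quantile normalization and 0.154 without normal 5, 6 and 7 together, and 0.181 to 0.195 on leaving out 1 line. The 100 most abundant rows held 33.2% of TPM after that rescaling, because the rows left out are among them. Of the 20 most variable genes, 13 were shared with a ranking by coefficient of variation and 8 to 19 on leaving out 1 line. Of the 15 steadiest, 4 were shared after rescaling, 2 without normal 5, 6 and 7 together and 5 to 11 on leaving out 1 line. The library series test (limma) called 11 genes with no filter, 21 after quantile normalization, 555 with all 19 lines and group as a term, 4 with sex as a term, 107 for the first series against the others, and 0 to 540 on leaving out 1 line. The sex test called 11 genes with no filter and 1 to 6 on leaving out 1 line. The cause of these changes was not tested. The number of genes at 1 TPM or more in all lines and the 25 most abundant named rows moved by less than 1.5 times under every alternative run for them. Of the 221 gene levels, 127 moved by more than 1 SD on rescaling, by a common factor of 1.303 to 1.4002 per line. None did on leaving out a line. Leaving out 1 of 7 values cannot move a mean by 1 SD, so that result says nothing of how steady the levels are. Leaving out normal 5, 6 and 7 together, the other scalings of the list levels and the comparison of those lines with the 16 others were chosen after seeing the data. No paired analysis was possible because the results concern normal lines alone and each replicate number occurs once among them. TPM keeps no depth, so the counting error of levels near 0 could not be computed.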

Other observations

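Genes of class I antigen presentation were abundant. B2m, the class I light chain, had 640.3 ± 146 TPM (SD, n = 7), H2-K1 261 ± 42.04 and H2-D1 195 ± 18.9 TPM, and the transporter subunit Tap1 6.54 ± 1.32 TPM. B2m was highest in normal 12 and 13 (844 and 808 TPM) and 466 to 645 in the other 5 lines, while H2-K1 was highest in normal 10 (346). Interferon response genes were low. Of 35 listed genes, 19 were above 1 TPM in all lines, with a median of means of 2.19 TPM, Bst2 at 43.3 ± 3.88 and Irf1 at 31.97 ± 8.24 TPM. Ifitm3 had 59.6 TPM in normal 6 and 12.6 to 28.3 elsewhere.

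Among 22 imprinted genes, 11 were above 1 TPM in all lines and 8 below 1 TPM in all lines. Peg3 had 13.9 ± 3.34 TPM. Rian, a maternally expressed noncoding RNA, varied most of those at a mean of 10 TPM or more, from 2.37 TPM in normal 12 to 24.5 in normal 6. Stress-inducible genes differed modestly: Ier3 ran from 103 TPM in normal 5 to 242 in normal 12, Klf6 from 64.7 in normal 13 to 136 in normal 5, and Hsph1, a heat shock protein, from 30.04 in normal 6 to 83.9 in normal 12.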
